A study of Homo sapiens with 4 samples.

Results

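The genes described here are 37 human genes of glucose uptake, glycolysis, lactate handling and the response to low oxygen. They were chosen by symbol for these roles, and the rule used no measured value. Earlier results of these data were known when the choice was made. The 37 genes fall into 25 genes for enzymes and transporters, 11 targets of the hypoxia-inducible factors (HIF) that are not glycolytic enzymes, and HIF1A itself. Each symbol matched 1 of the 60658 Ensembl gene identifiers in the expression tables. A mean over all libraries of at least 1 FPKM (fragments per kilobase of transcript, scaled to the fragments of the library) was reached by 36 of them, among 14803 genes in all, and CA9 was the member below it.

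Messenger RNA was sequenced from HT29 and LIM1215, which are established human colorectal cancer cell lines. Each line gave 1 library after a negative control siRNA with no gene target and 1 after an siRNA to TMEM161A, a gene whose expression the study related to proliferation and prognosis in colorectal cancer. An siRNA is a short RNA duplex that directs the degradation of a matching mRNA, and the label of the TMEM161A siRNA was the same in both lines. All 4 groups were transfected cells, and with 1 library per group no value below has an error between cultures and no difference could be tested. Oxygen and glucose supply, the time after transfection and any batch are not given in the sources used here.

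Glycolysis converts glucose to pyruvate in the cytosol. Glucose transporters bring the sugar in, hexokinases trap it by phosphorylation, and lactate dehydrogenase turns pyruvate into lactate, which leaves the cell through monocarboxylate transporters. Tumour cells, colorectal cancer cells among them, often run this route at a high rate even when oxygen is present. HIF is a transcription factor made of an alpha subunit, such as the product of HIF1A, and a stable partner, ARNT. With oxygen, prolyl hydroxylases mark the alpha subunit for degradation through VHL, so its activity is set mainly at the protein level, which RNA sequencing does not measure. Without oxygen it accumulates, binds the DNA core ACGTG or GCGTG and raises transcription of glycolytic genes and of genes for vessel growth, pH, mitophagy and its own hydroxylases.

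The labels were checked first. TMEM161A was at 42.6 FPKM with control and 4.64 with its own siRNA in HT29, and at 39.1 and 7.61 in LIM1215. The libraries were of like depth, with 18.06 to 21.54 estimated fragments per kilobase behind each unit of FPKM. All 9 intestinal epithelial markers examined reached 1 FPKM in both LIM1215 libraries, but 5 of the 9 did in both HT29 libraries (EPCAM, CDH1, KRT8, KRT18 and CDX2). CDX1 was listed at 0 in both HT29 libraries, and VIL1 (0.04 with control and 0 with TMEM161A siRNA), KRT20 (0.31 and 0.81) and LGALS4 (0.61 and 0.42) were below 1. In LIM1215 these 4 genes lay between 67.8 and 398 FPKM. Of 14 markers of fibroblasts, leukocytes and endothelium, 12 were below 1 FPKM in all libraries, and the others were COL1A1, at 4.83 to 17.6, and LYZ, at 0.20 to 2.13. PTPRC, CD3E and LUM were listed at 0 in all libraries. The low levels of CDX1, VIL1, KRT20 and LGALS4 go against the colon epithelial label of the HT29 libraries. Whether the cells were HT29 cannot be settled from these values. HT29 below therefore means the libraries so labelled, also in each comparison of the lines. The part of these marker differences in that comparison was not tested.

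GAPDH, the glyceraldehyde 3-phosphate dehydrogenase, was the most abundant member in every library, at 4558 FPKM with control siRNA in HT29 and 4478 in LIM1215. Next in HT29 stood ENO1 (enolase, 2032 FPKM), ALDOA (aldolase, 1535), PKM (pyruvate kinase, 1180.0) and LDHA (lactate dehydrogenase A, 1050.2). In LIM1215 ALDOA came second, at 1655 FPKM, before ENO1 at 1284 and PKM at 1283. The 13 enzyme genes from glucose 6-phosphate to pyruvate made up 1.46% of the summed FPKM with control and 1.30% with TMEM161A siRNA in HT29, and 1.21% and 1.13% in LIM1215. The 11 HIF targets summed to 415 and 387 FPKM in HT29 and to 255 and 268 in LIM1215, so both HT29 libraries held more of these transcripts than either LIM1215 library.

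**Figure D1:**
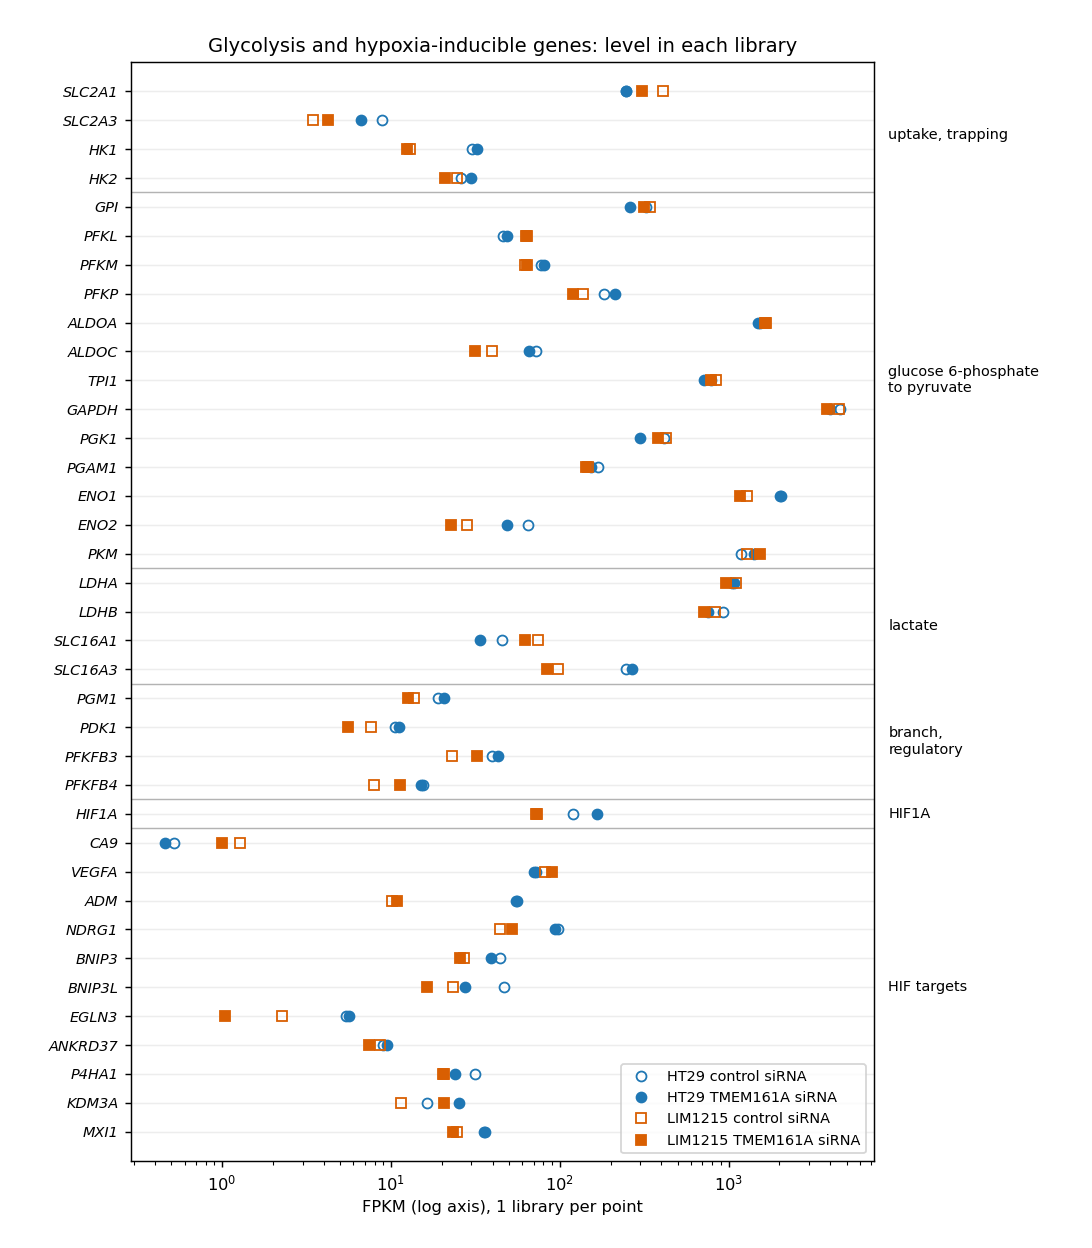
FPKM of the 37 members on a log axis, 1 point per library, with circles for HT29, squares for LIM1215, open symbols for control siRNA and filled symbols for TMEM161A siRNA. GAPDH is highest and CA9 lowest, and the points of ADM, HK1 and SLC16A3 separate by line and not by siRNA.

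The TMEM161A siRNA was set against the control siRNA within each line to ask how the knockdown bears on these genes. No member passed 2-fold, counted as a log2 ratio of FPKM plus 1 of at least 1 in either direction, against 3.80% of all genes in HT29 and 3.46% in LIM1215. At 1.5-fold, KDM3A was higher and BNIP3L lower in HT29, and KDM3A was higher and EGLN3 lower in LIM1215. All 3 are HIF targets, and no enzyme or transporter passed 1.5-fold in either line. Of all genes, 7.87% passed 1.5-fold upward and 6.91% downward in HT29, beside 6.63% upward and 6.18% downward in LIM1215. The members' counts, 1 of 36 in each direction and line, were not above these shares.

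The median log2 ratio of the 25 enzyme and transporter genes was −0.01 in HT29, with 12 above 0 and 13 below, and −0.14 in LIM1215, with 6 above and 19 below. Over all genes the medians were 0.04 and 0.02. The 10 HIF targets compared had medians of −0.04 (4 above 0 and 6 below) and −0.02 (5 each way), and the latter was 0.03 among genes with a mean of at least 5 FPKM.

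KDM3A encodes a histone H3 lysine 9 demethylase that uses oxygen and is induced by HIF. HT29 held 16.5 FPKM with control and 25.4 with TMEM161A siRNA, and LIM1215 held 11.4 and 20.7. Both knockdown libraries lay above both controls. The level with TMEM161A siRNA was 154% of control for HT29 (95% counting interval 145% to 164%) and 182% for LIM1215 (168% to 197%), with log2 ratios of 0.60 and 0.81. These intervals, by the exact Clopper-Pearson method on estimated fragments, cover counting error only. Amplified reads are not independent molecules, and the spread between cultures is unknown. In bulk RNA, fewer cells with a transcript and less of it per cell cannot be told apart. KDM3A (ENSG00000115548, chromosome 2, 86440647 to 86492716, plus strand, GRCh38) shares no exon with another annotated gene.

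BNIP3L encodes an outer mitochondrial membrane receptor of mitophagy, the removal of mitochondria by autophagy. HT29 held 46.9 FPKM with control and 27.5 with TMEM161A siRNA, and LIM1215 23.2 and 16.3. The knockdown library was lower in both lines, at 58.6% of control (interval 55.4% to 62.1%) and 70.5% (65.0% to 76.4%), or log2 ratios of −0.75 and −0.48. BNIP3, its paralog with the same role, had log2 ratios of −0.17 and −0.07. Within a library, where scaling plays no part, BNIP3L made up 51.6% of BNIP3 plus BNIP3L with control and 41.3% with TMEM161A siRNA in HT29, and 46.1% and 38.8% in LIM1215. BNIP3L (ENSG00000104765, chromosome 8, 26383054 to 26505636, plus strand) overlaps PNMA2 on the opposite strand. Whether the counting used the strand is not stated, so reads of such pairs may be mixed. Annotated pseudogene copies of BNIP3, 44 in all, summed to at most 5.07% of its FPKM.

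EGLN3 encodes one of the oxygen-sensing prolyl hydroxylases and is itself induced by HIF. LIM1215 held 2.27 FPKM with control and 1.03 with TMEM161A siRNA, and HT29 5.41 and 5.62. In LIM1215, on 102.8 and 52.5 estimated fragments, the level was 45.6% of control (interval 32.3% to 64.5%), a log2 ratio of −0.68. In HT29 it was 104% (88.2% to 123%), a log2 ratio of 0.05 that turned negative on rescaling to a common sum. With a pseudocount of 0.1 EGLN3 passed 2-fold in LIM1215. The gene (ENSG00000129521, chromosome 14, 33924227 to 34462774, minus strand) shares no exon with another annotated gene.

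The remaining HIF targets were closer to control. P4HA1, a subunit of the collagen prolyl 4-hydroxylase, had log2 ratios of −0.37 (HT29) and 0.03 (LIM1215), and NDRG1, a stress-induced gene, −0.05 and 0.22. For VEGFA, the vascular growth factor, they were −0.05 and 0.12, and for ADM, the vasodilator peptide adrenomedullin, −0.02 and 0.09. The counting interval excluded no difference for P4HA1 in HT29 (71.3% to 82.5% of control). In LIM1215 it did so for NDRG1 (110% to 123%) and VEGFA (105% to 113%). Both counting intervals included no difference for ADM, for ANKRD37 (0.08 and −0.19) and for MXI1, a MAX partner that opposes MYC (0.00 and −0.07). CA9, the cell surface carbonic anhydrase IX and a common marker of hypoxia, was near the limit of detection, at 0.520 and 0.458 FPKM in HT29 and 1.28 and 0.994 in LIM1215, control first. These stand for 13.3 to 31.1 estimated fragments, and a difference between siRNAs was not detectable at this depth.

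HIF1A, the oxygen-regulated subunit, stood at 119.5 FPKM with control and 165 with TMEM161A siRNA in HT29, and at 71.9 and 73.6 in LIM1215. HT29 was at 138% of control (interval 135% to 142%; log2 ratio 0.46) and LIM1215 at 102% (98.4% to 106%; 0.03). The HT29 pair alone differed beyond counting error, and whether the lines differ in this was not tested. HIF1A (ENSG00000100644, chromosome 14, 61695513 to 61748259, plus strand) overlaps HIF1A-AS1 and HIF1A-AS3 on the opposite strand and 1 noncoding gene on its own.

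**Figure D2:**
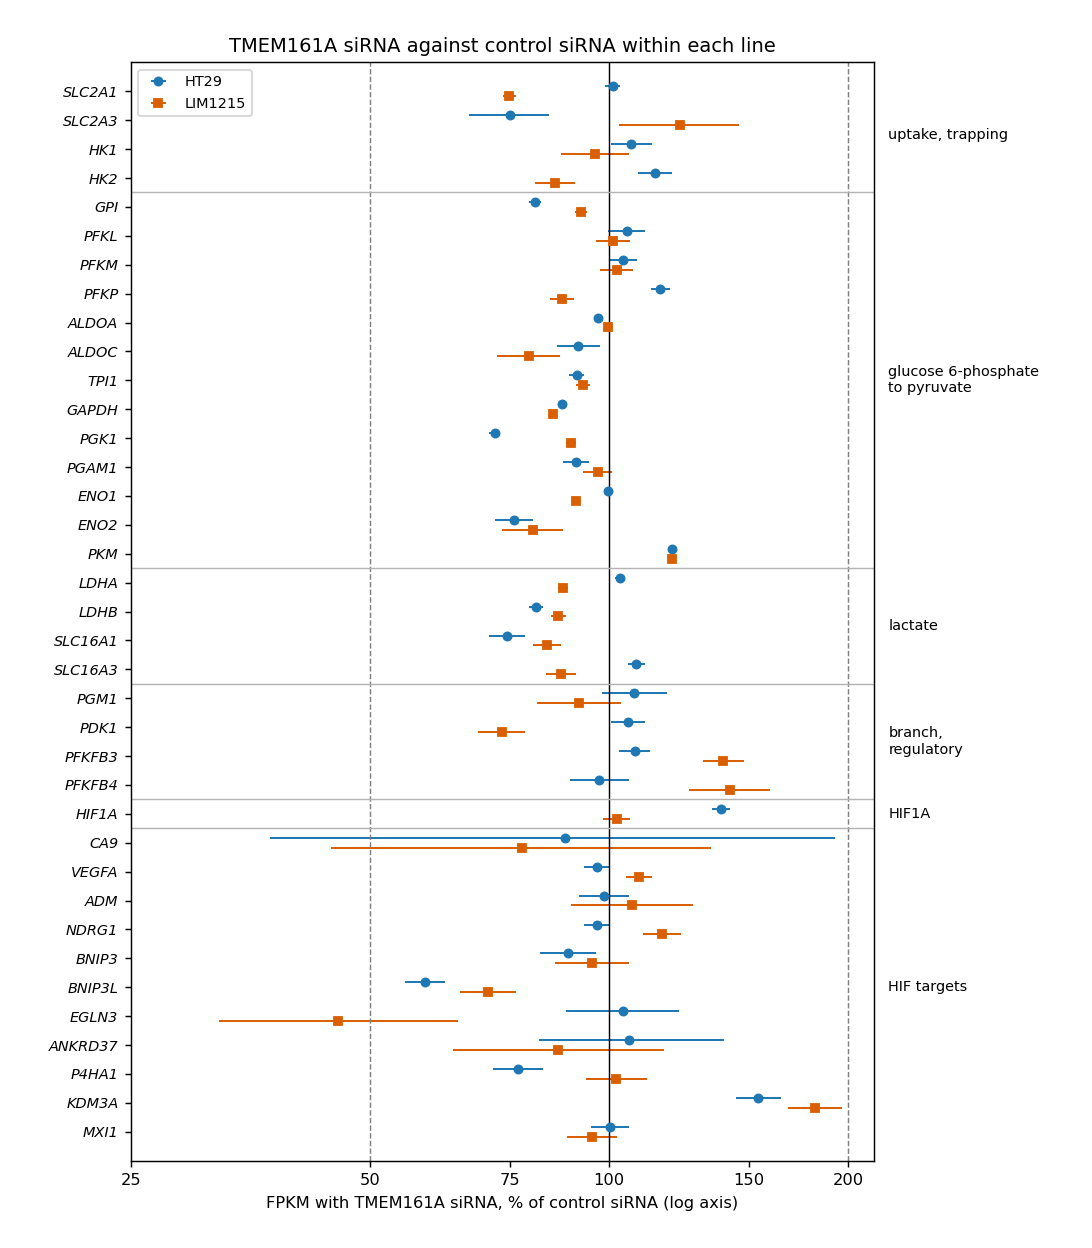
FPKM of each member with TMEM161A siRNA as a percentage of the control siRNA of the same line (log axis), with circles for HT29, squares for LIM1215, bars for 95% counting intervals and dashed lines at 2-fold. KDM3A lies above 100% and BNIP3L below it in both lines, and EGLN3 is at 45.6% in LIM1215.

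The genes for uptake and trapping of glucose did not share a direction. SLC2A1, the glucose transporter GLUT1, held 246 FPKM with control and 248 with TMEM161A siRNA in HT29, and 411 and 308 in LIM1215. It was at 101% of control in HT29, a direction that each rescaling turned, and at 74.9% in LIM1215 (interval 73.5% to 76.3%). HK2, the hexokinase bound to mitochondria in many tumours, was at 114% and 85.5%, and HK1, the widely expressed one, at 107% and 95.9%.

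Of the 13 enzyme genes from glucose 6-phosphate to pyruvate, 9 were below 0 in HT29 and 10 in LIM1215, with median log2 ratios of −0.13 and −0.12. PGK1, the phosphoglycerate kinase that makes ATP, was lowest of them in HT29, with 416 FPKM against 298, or 71.8% of control (interval 70.7% to 72.8%), and at 89.7% in LIM1215. GAPDH, often used as a reference gene, was at 87.2% and 85.1%, GPI (glucose 6-phosphate isomerase) at 80.7% and 92.3%, and TPI1 (triose phosphate isomerase) at 91.0% and 92.8%. PKM went the other way, at 120.0% of control in HT29 (1180.0 and 1416 FPKM) and 120.1% in LIM1215 (1283 and 1541), and kept that direction under every scaling tried. Among the phosphofructokinases, whose enzyme commits sugar to glycolysis, PFKP had log2 ratios of 0.21 and −0.20. PFKL (0.07 and 0.02) and PFKM (0.06 and 0.03) were near 0 and changed sign in HT29 on rescaling to a common sum. The other members of this group, ALDOA, ALDOC, PGAM1, ENO1 and ENO2, were below 0 in both lines, between −0.39 and −0.00.

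On the lactate side, LDHB, the isoform that favours lactate use, was at 80.9% of control in HT29 and 86.3% in LIM1215, and LDHA at 103% and 87.5%. SLC16A1, the lactate transporter MCT1, was at 74.4% and 83.6%. SLC16A3, the exporter MCT4, was at 108% and 87.0%. PFKFB3 and PFKFB4, whose enzymes make the phosphofructokinase activator fructose 2,6-bisphosphate, were at 139% (interval 131% to 148%) and 142% (126% to 159%) of control in LIM1215, and at 108% and 97.2% in HT29. PDK1, which restrains entry of pyruvate into mitochondria, was at 106% in HT29 and 73.2% in LIM1215, and PGM1, a branch point to glycogen, at 108% and 91.6%. The enzymes and transporters singled out in the knockdown comparison were picked for their roles after their values were seen.

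Across both knockdown comparisons, which have separate controls, 6 members were above 0 in each line, 13 were below 0 in each and 17 went opposite ways. The 6 were PFKL, PFKM, PKM, PFKFB3, HIF1A and KDM3A, and the 13 were 11 enzyme or transporter genes with BNIP3 and BNIP3L. Of all genes, 53.9% were above 0 in HT29 and 53.1% in LIM1215, and 44.4% and 46.4% were below. Directions shared by both lines were not counted over all genes, so no share stands beside the 6, 13 and 17.

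The control libraries were then set against each other to ask how the lines differ without the knockdown. Of the 36 members, 6 were lower in LIM1215 than in HT29 by 2-fold (16.7%), beside 7.42% of all genes, and 0 were higher, beside 12.0% of all genes. The 6 were the uptake and trapping genes SLC2A3 and HK1, the enolase ENO2, the lactate exporter SLC16A3 and the HIF targets ADM and NDRG1. The median log2 ratio was −0.19 for the enzymes and transporters and −0.64 for the HIF targets, beside 0.05 over all genes. Of the 10 targets 9 were below 0, beside 45.9% of all genes, and VEGFA was at 0.17. CA9, left out of the 10 by its low mean, was higher in LIM1215, at 1.28 FPKM against 0.520. Rescaling moved the median of all genes to −0.11 with a common sum and −0.08 with the upper quartile. With a common sum VEGFA changed sign, 10 members were lower and 0 higher, and 1489 genes in all were higher and 1452 lower, against 1773 and 1099 in the values as deposited.

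ADM had the lowest ratio of all members. HT29 held 55.9 and 55.1 FPKM with control and TMEM161A siRNA, and LIM1215 10.2 and 10.9. The LIM1215 control was at 18.2% of the HT29 control (interval 15.9% to 20.9%), a log2 ratio of −2.35. Values of the lines did not overlap, and within a line those of the siRNAs were close. ADM (ENSG00000148926, chromosome 11, 10305073 to 10307397, plus strand) shares no exon with another annotated gene.

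NDRG1 held 97.4 and 94.0 FPKM in HT29 and 44.5 and 51.8 in LIM1215, control first, with a log2 ratio of −1.11 between the controls. It (ENSG00000104419, chromosome 8, 133237175 to 133302022, minus strand) overlaps 1 noncoding gene on its own strand. BNIP3L was at 49.4% of the HT29 control and EGLN3 at 42.0% (interval 33.3% to 53.0%), and the pseudocount put both just short of the threshold, at −0.99 and −0.97. BNIP3 (61.6%), P4HA1 (64.4%), MXI1 (68.5%), KDM3A (69.3%) and HIF1A (60.2%) were lower by less. ANKRD37 was at 96.0%, and its interval of 71.7% to 128% included no difference. CA9 was at 246% (127% to 483%), where the controls held 31.1 (LIM1215) and 14.8 (HT29) estimated fragments.

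The glucose transporters went opposite ways. SLC2A1 was at 167% of HT29 in LIM1215 (interval 164% to 171%). SLC2A3, the high-affinity transporter GLUT3, held 8.84 and 6.63 FPKM in HT29 and 3.46 and 4.24 in LIM1215, a log2 ratio of −1.14 between the controls and of −0.71 with a pseudocount of 5. SLC2A3 (ENSG00000059804, chromosome 12, 7919230 to 8019007, minus strand) is uncertain, since 3 pseudogene copies summed to 14.5 and 9.44 FPKM in HT29 and to 16.4 and 14.7 in LIM1215, above the gene itself. HK1 (ENSG00000156515, chromosome 10, 69269984 to 69401884, plus strand) held 30.3 and 32.4 FPKM in HT29 and 12.9 and 12.4 in LIM1215, with no overlap of the lines. The log2 ratio was −1.17, and −0.98 with a pseudocount of 5, short of 2-fold. HK2 differed little, at 94.1%.

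Several abundant enzymes of the route differed little between the controls. ALDOA, TPI1, GAPDH, PGK1, PKM and LDHA lay between 98.2% and 109% of HT29 in LIM1215, and those above 100% were below it on rescaling to a common sum. ENO1 was at 63.2%. ENO2, the enolase best known from neurons, held 64.6 and 49.0 FPKM in HT29 and 28.3 and 22.7 in LIM1215, a log2 ratio of −1.16, and ALDOC, the minor aldolase, was at 54.9%. ENO2 (ENSG00000111674, chromosome 12, 6913745 to 6923698, plus strand) lies near TPI1 (6867119 to 6870948) and GAPDH (6534512 to 6538374) on the same strand, which were at 108% and 98.2%. Of the other enzymes, PFKL was at 137%, PFKM at 80.4%, PFKP at 75.2%, GPI at 106%, PGAM1 at 87.4% and LDHB at 89.4%.

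The monocarboxylate transporters also went opposite ways. SLC16A3 (ENSG00000141526, chromosome 17, 82217934 to 82261129, plus strand) held 246 and 266 FPKM in HT29 and 97.1 and 84.4 in LIM1215. The LIM1215 control was at 39.5% (interval 38.1% to 40.9%), a log2 ratio of −1.33, whereas SLC16A1 was at 164% (157% to 172%). SLC16A3 overlaps CSNK1D, and SLC16A1 overlaps SLC16A1-AS1, each on the opposite strand. The regulatory and branch genes were all lower, PFKFB3 at 58.1%, PFKFB4 at 51.6%, PDK1 at 72.3% and PGM1 at 72.1%.

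**Figure D3:**
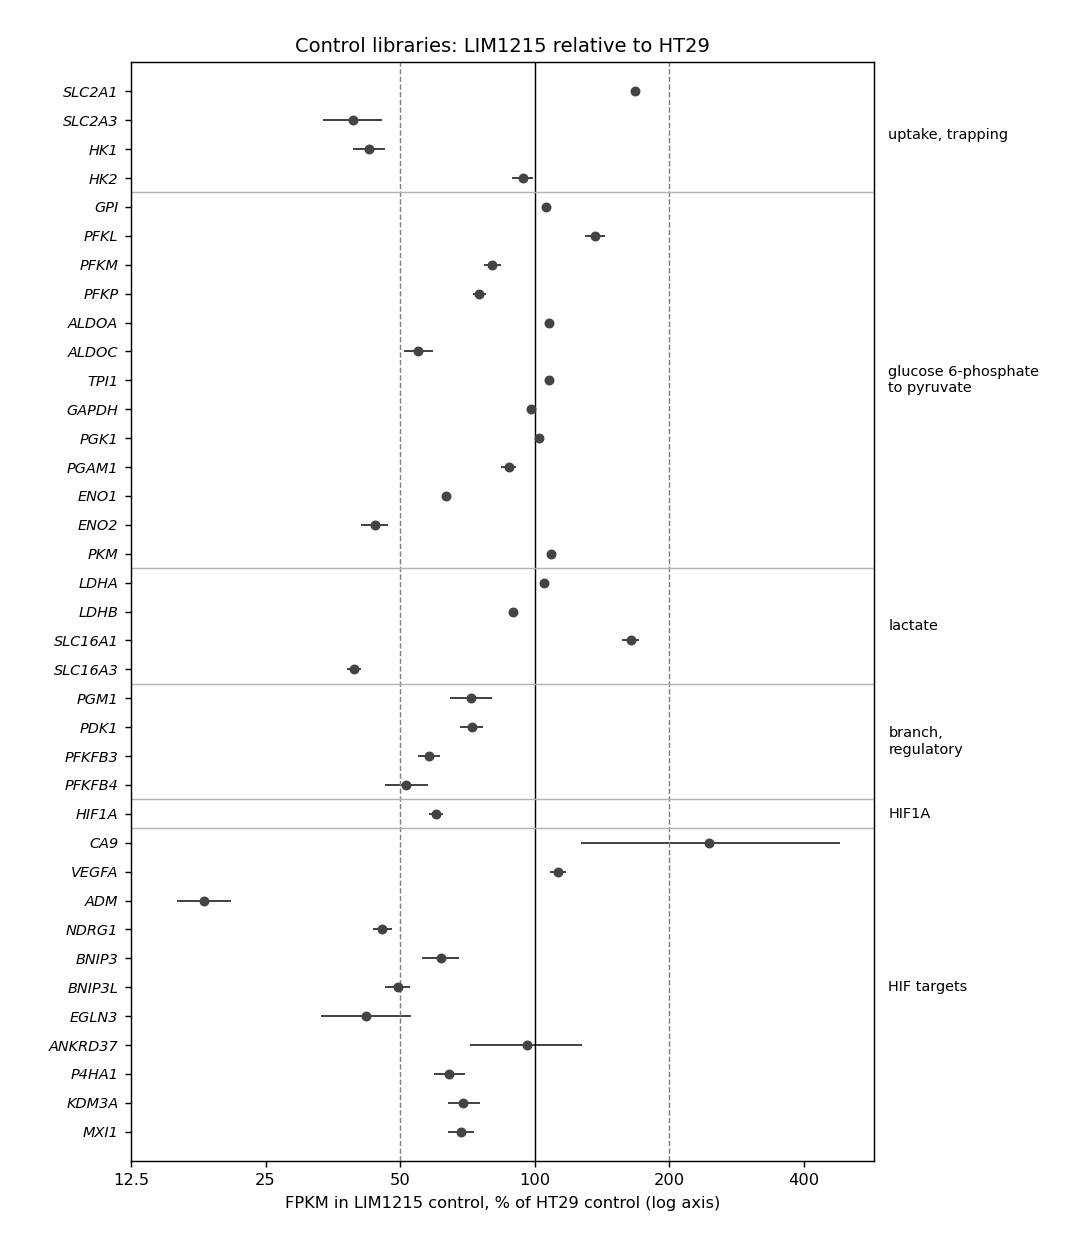
FPKM of each member in the LIM1215 control as a percentage of the HT29 control (log axis), with 95% counting intervals as bars and dashed lines at 2-fold. ADM lies farthest to the left at 18.2%, SLC2A1 (167%) and SLC16A1 (164%) lie to the right, and most HIF targets lie left of 100%.

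Shares of paralogs within a library do not depend on how libraries are scaled. SLC16A3 made up 84.5% and 88.8% of SLC16A1 plus SLC16A3 in HT29, control first, and 56.7% and 57.7% in LIM1215. HK2 made up 46.1% and 47.8% of HK1 plus HK2 in HT29 and 65.5% and 62.8% in LIM1215. PFKP held the largest share of the phosphofructokinases in every library, 59.5% and 62.0% in HT29 and 52.2% and 48.4% in LIM1215. In the shares of SLC16A3, HK2 and PFKP the libraries of a line lay closer to each other than to either library of the other line. The PFKM share did not group by line, at 25.3% and 23.7% in HT29 and 23.7% and 25.8% in LIM1215. LDHB made up 46.9% of LDHA plus LDHB in the HT29 control and 40.9% to 42.9% in the other libraries.

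**Figure D4:**
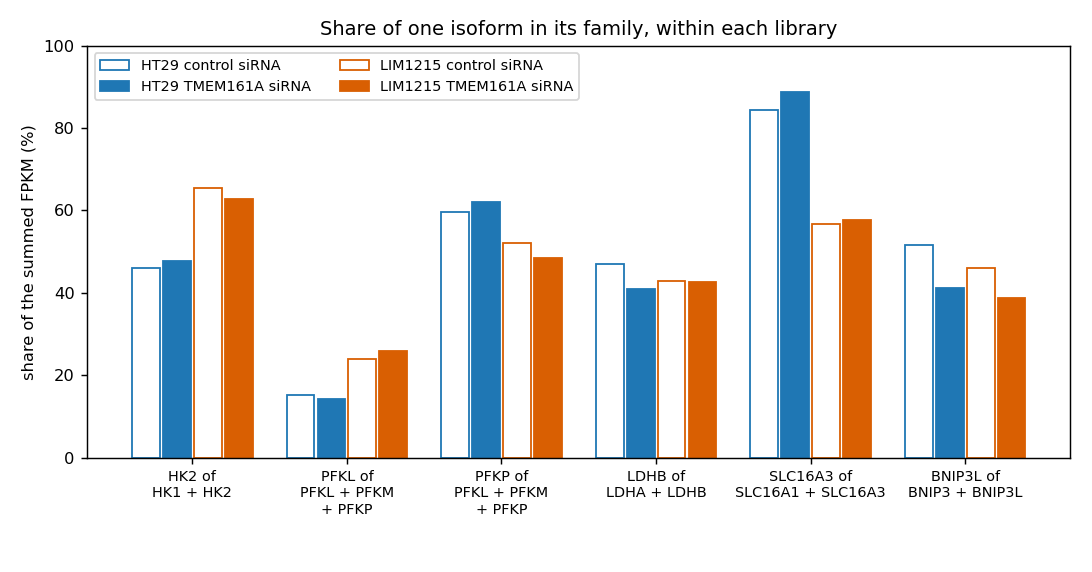
Share of an isoform in the summed FPKM of its family (linear axis from 0), 1 bar per library, by line and siRNA. The SLC16A3 and HK2 bars group by line, whereas the BNIP3L bars are lower with TMEM161A siRNA in both lines.

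Start-site regions were searched for the HIF core letters, since most HIF targets were lower in LIM1215 and KDM3A was higher with TMEM161A siRNA in both lines. RefSeq windows from 250 bases before to 50 bases after a gene start (GRCh38.p14) were held for 32 of the 37 members. None was held for SLC2A3, SLC16A1, VEGFA, NDRG1 and BNIP3L. ACGTG, on either strand, was in 24 of the 64 windows of the 32 members (37.5%) and in 21.4% of all 35116 windows. GCGTG, on either strand, was in 27 of the 64 (42.2%) and in 36.5% of all. The HIF targets had only 11 of the 64 windows, from 8 genes, with ACGTG in 5 and GCGTG in 6. The enzymes and transporters had 51 windows, with ACGTG in 19 and GCGTG in 20. One or the other was found for 30 of the 32 members, the exceptions being EGLN3 and PGAM1, and for 14318 of all 27305 genes. The members had more windows per gene, 64 for 32 genes against 35116 for 27305, which raises a count by gene. A match describes letters and is not a measured binding site.

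The 250 bases before the start are shown for ADM, SLC16A3 and ENO2, which passed 2-fold between the control libraries, for KDM3A, which was higher with TMEM161A siRNA in both lines, and for LDHA as an enzyme at 105% of HT29 in LIM1215. Capitals mark ACGTG or GCGTG on either strand, read as CACGT or CACGC on the other, and CACGTG holds ACGTG on both. Where RefSeq gives several starts, the window with most ACGTG matches is shown, then with most matches in all.
ADM (chr11:10304823-10305072, plus strand): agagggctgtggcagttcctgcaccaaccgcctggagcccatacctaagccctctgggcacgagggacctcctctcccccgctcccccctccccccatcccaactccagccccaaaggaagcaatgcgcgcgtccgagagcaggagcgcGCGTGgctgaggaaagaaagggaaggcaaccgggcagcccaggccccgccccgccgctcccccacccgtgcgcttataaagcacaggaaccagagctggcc
SLC16A3 (chr17:82228792-82229041, plus strand): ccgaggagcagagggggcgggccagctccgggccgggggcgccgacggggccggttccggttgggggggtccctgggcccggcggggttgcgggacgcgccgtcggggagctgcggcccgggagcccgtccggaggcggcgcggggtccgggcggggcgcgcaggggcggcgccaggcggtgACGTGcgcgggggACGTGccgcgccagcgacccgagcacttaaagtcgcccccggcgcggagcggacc
ENO2 (chr12:6914330-6914579, plus strand): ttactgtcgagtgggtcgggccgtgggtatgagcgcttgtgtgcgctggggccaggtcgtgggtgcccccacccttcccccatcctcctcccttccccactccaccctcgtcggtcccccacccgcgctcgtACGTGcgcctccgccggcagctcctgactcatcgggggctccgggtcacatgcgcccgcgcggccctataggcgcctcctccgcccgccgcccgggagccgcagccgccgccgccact
KDM3A (chr2:86441121-86441370, plus strand): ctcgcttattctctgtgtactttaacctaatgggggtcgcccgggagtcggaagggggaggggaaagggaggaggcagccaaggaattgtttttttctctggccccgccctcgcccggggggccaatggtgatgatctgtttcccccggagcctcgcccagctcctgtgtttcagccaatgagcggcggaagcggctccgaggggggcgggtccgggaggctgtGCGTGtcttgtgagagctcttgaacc
LDHA (chr11:18394313-18394562, plus strand): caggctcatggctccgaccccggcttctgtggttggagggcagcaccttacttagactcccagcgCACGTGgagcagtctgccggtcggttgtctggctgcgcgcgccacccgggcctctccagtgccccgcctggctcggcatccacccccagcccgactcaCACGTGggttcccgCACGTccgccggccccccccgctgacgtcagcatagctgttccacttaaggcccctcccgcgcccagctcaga
ADM holds GCGTG 101 bases before the start and KDM3A 26 bases before it. ENO2 holds ACGTG at 118 bases, and SLC16A3 at 68 and at 55 bases. LDHA holds 5 matches between 185 and 69 bases before the start, the most of these genes, with each CACGTG counted once per strand.

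Other genes of the pathway were counted by lists that hold no member. Of 10 genes of the HIF machinery compared, 0 passed 2-fold after knockdown in either line, and CITED2, whose product competes with HIF for coactivators, was the 1 past 1.5-fold, in LIM1215 (33.3 to 59.8 FPKM, log2 ratio 0.83, and 0.50 in HT29). Between the controls EPAS1, the HIF2 alpha subunit, was at 1.07 on the log2 scale, opposite to HIF1A, and HIF1AN, which hydroxylates HIF, at −1.01. Among 22 other hypoxia-inducible genes, 0 passed 2-fold in HT29 and 1 in LIM1215, WSB1, a ubiquitin ligase subunit. WSB1 held 30.5 and 67.0 FPKM there and 47.1 and 70.6 in HT29, with log2 ratios of 1.11 and 0.57. The median of the 22 was −0.10 in HT29, 0.02 in LIM1215 and −0.25 between the controls, where 15 were below 0 and 7 above. Of all genes, 45.9% were below 0 between the controls and 53.7% above.

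Among 11 genes for entry of pyruvate into mitochondria, 1 passed 2-fold, MPC2 in HT29, a subunit of the mitochondrial pyruvate carrier. MPC2 held 22.2 and 9.77 FPKM in HT29 (log2 ratio −1.11) and 64.4 and 51.8 in LIM1215 (−0.31). PDHX, of the pyruvate dehydrogenase complex, was lower by 1.5-fold in both lines (−0.63 and −0.72). MPC2 overlaps DCAF6 and PDHX overlaps APIP, each on the opposite strand. Of 7 pentose phosphate and 7 glycogen genes, 0 passed 2-fold after knockdown. HKDC1, a further hexokinase, made up 28.2% and 23.6% of HK1, HK2 and HKDC1 in HT29 and 55.9% and 55.1% in LIM1215. CITED2, EPAS1, HIF1AN, PDHX and HKDC1 were picked after their values were seen.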

How the data were processed

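Each library came as a table of FPKM per Ensembl gene identifier that the authors deposited. The submitters' processing notes name HISAT2 2.1.0, SAMtools 1.20, Cuffdiff, Cufflinks 2.2.1 and GRCh38, with no role or order. The annotation, strand setting and filters are not given in the sources used here. The library kit keeps the strand, per the labels' protocols.

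Symbols and positions came from GENCODE 44 on GRCh38, which named 56550 of the 60658 identifiers. Log2 ratios used FPKM plus a pseudocount of 1, for genes with a mean of at least 1 FPKM, and a gene was counted at a log2 ratio of 1. With 1 library per group no test was made. Depth was estimated from the steps of low values in genes of at least 500 bases: 80.0% to 82.1% lay within 0.03 of a whole number of fragments, against 6% for values without steps. Fragments are therefore estimates, and exact Clopper-Pearson 95% intervals of ratios cover counting error only. Each gene's fragments were computed with the length of the 1 transcript marked as canonical. Another length would change the fragments and the width of the intervals, and none was tried. The depth fit and the ratios were tested on simulated data.

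Values in every library were given for members past 1.5-fold after knockdown or 2-fold between the controls and for HIF1A, and in other lists for genes past 2-fold after knockdown. The members and lists were chosen with earlier results of these data known. Alternatives were pseudocounts of 0.1 and 5, no filter or a mean of 5 FPKM, centring, a common sum, upper quartile scaling and a 1.5-fold threshold. Python 3.11.15, numpy 2.4.6, pandas 2.3.3, scipy 1.17.1 and matplotlib 3.10.9 were used.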

Additional observations from a re-analysis of the deposited data

Results flagged for a closer look

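In 6 members the TMEM161A siRNA library lay on opposite sides of its control in the lines, each beyond the counting interval. The intervals excluded no difference for 25 of the 36 members in HT29 and for 24 in LIM1215. The share of all genes that does so was not counted, nor the share that meets the rule for the 6. With many fragments the intervals are narrow, and small differences can lie outside them. ALDOA in HT29, at 97.0% of control (95.7% to 98.2%), was 1 of the 25. The log2 ratio in LIM1215 minus that in HT29 was 0.60 for SLC2A3 (0.23 and −0.37), −0.40 for HK2 (−0.22 and 0.18), −0.41 for PFKP (−0.20 and 0.21) and −0.31 for SLC16A3 (−0.20 and 0.11). It was −0.46 for PDK1 (−0.39 and 0.07) and −0.24 for LDHA (−0.19 and 0.04), and in both the HT29 sign turned on rescaling to a common sum. With a pseudocount of 5 the difference for SLC2A3 was 0.38. Pseudogene copies of SLC2A3 summed above the gene itself in every library, so its values are uncertain. The HT29 interval of PDK1, 100.5% to 110.9%, was computed with a transcript length of 14072 bases. These differences were not tested, since each line had 1 library per siRNA.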

How the results depend on the processing

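No paired analysis was possible because each group had 1 library, and for the same reason no library could be left out. With a common sum the enzyme and transporter median was −0.087 in HT29 and −0.37 between the controls, and with upper quartile scaling the latter was −0.35. The HIF target median between the controls was −0.82 and −0.80 under these scalings and −0.52 with a pseudocount of 5. Each of these scalings put 10 members lower (27.8%) and 0 higher in LIM1215. Of all genes, 9.81% were lower and 10.1% higher with a common sum, and 9.48% and 10.3% with the upper quartile. A pseudocount of 5 put 4 members lower (ENO2, SLC16A3, ADM and NDRG1), without SLC2A3 and HK1, and 0 higher. These 4 were 11.1% of the members, beside 2.38% of all genes lower and 6.40% higher. With a pseudocount of 0.1, 1 member (EGLN3) was lower by 2-fold with TMEM161A siRNA in LIM1215 (2.78%, beside 3.43% of all genes). At 1.5-fold, 1 member was higher and 1 lower in each knockdown comparison, and between the controls 2 members were higher (5.56%, beside 21.8% of all genes) and 15 lower (41.7%, beside 16.3%). Among protein-coding genes alone, an alternative chosen after seeing the data, 2.22% passed 2-fold after knockdown in HT29 and 1.64% in LIM1215. No member past 2-fold changed sign under the scalings tried, which were too small to turn such a ratio. Between the controls they moved the median of all genes from 0.05 to −0.11 at most. CA9, EGLN3 and ANKRD37 rested on the fewest fragments. A difference between siRNAs or lines cannot be told apart from one between single cultures.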
